A study of Mus musculus with 72 samples.

Results

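The 6 libraries described here are the input RNA of 3 relapse lines from mice given CX-5461 and everolimus together (combination lines 8, 9 and 31) and of 3 relapse lines from mice given CX-5461 alone (CX5461 lines 14, 20 and 39). They were chosen by their labels and are 6 of the 72 libraries of the series. Eμ-Myc lymphoma cells are mouse B-lymphoma cells in which the immunoglobulin heavy chain enhancer drives a Myc transgene. All the relapse lines came from clone #107, marked with MSCV Gfp and grown in C57BL/6 mice that had relapsed under treatment, so vehicle-treated (labelled drug-naive), everolimus, CX5461 and combination lines all carry the Myc transgene and the Gfp vector. Cells were taken from lymph nodes at the endpoint and kept in culture for 2 to 3 passages before RNA was prepared. The labels do not say whether drug was present in culture, and the lines of 1 treatment are of 1 clone, so p-values measure the spread between these lines. Input RNA is the cytoplasmic RNA loaded on the sucrose gradient, and polysomal RNA is the RNA from fractions with many ribosomes of the same lines.

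CX-5461 inhibits transcription of ribosomal RNA genes by RNA polymerase I and also stabilises unusual DNA structures and affects topoisomerase II. Everolimus inhibits mTORC1, the kinase complex that couples nutrients and growth factors to ribosome production and translation. Sesn2 and Ddit4 encode stress-induced proteins that restrain mTORC1, and the kinases of the RAS and ERK pathway induce their own inhibitors of the Dusp, Spry and Spred families. The comparison asks how the RNA of lymphoma that came back under both drugs differs from that of lymphoma that came back under CX-5461 alone.

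The 6 input libraries held between 15755256 and 25147599 counts in genes. The B cell genes Cd79a, a signalling chain of the B cell receptor, and Pax5, the transcription factor of B cell identity, were at 226 to 389 CPM and 147 to 171 CPM in the combination lines and at 169 to 304 CPM and 147 to 150 CPM in the CX5461 lines. Ms4a1, another marker on the B cell list, was low, at 1.66 to 2.45 CPM in the combination lines and 0.72 to 6.42 CPM in the CX5461 lines. The T cell markers summed to at most 4.85 CPM and the macrophage and myeloid markers to at most 1.99 CPM in the 6 libraries, with Cd3e and C1qa at 0. CPM values here are counts scaled to a common library size with the TMM factor, a correction for differences in RNA composition. The level of the predicted gene Gm9341 divides the columns of the table into 2 runs, at 0.046 to 0.212 CPM in combination 8 and 9 and CX5461 14 and 39 and at 35.8 to 39.4 CPM in combination 31 and CX5461 20. Each treatment thus had 2 lines in the first run and 1 in the second. What the runs are is not stated, so they are called column runs. Among the polysomal libraries, CX5461 14 and 39 stood apart, with correlations of 0.828 to 0.854 to the other 10, which correlated at 0.947 to 0.99 among themselves, so polysomal results are also given without them. Such values compare the combination lines with CX5461 20 alone, which has no spread of its own.

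The heavy and kappa chain variable segments, which can mark the descent of a B cell, were read first. Ighv2-2 was the leading heavy chain segment in all 12 relapse lines, with 78.1% to 83.7% of heavy chain variable counts. The kappa chain differed between lines. Igkv4-79 led in combination 8 (39% of 2425 kappa variable counts, exact 95% binomial interval 37% to 40.9%) and combination 9 (35.7%, 33.9% to 37.6%). Igkv4-53 led in CX5461 14 (51.2%, 48.9% to 53.5%) and CX5461 39 (42%, 39.7% to 44.4%). Igkv5-43 led in combination 31 (53.6%, 50.9% to 56.4%) and CX5461 20 (65.9%, 63.7% to 68.1%), the 2 lines of the second column run. These intervals cover counting error only. Igkv5-43 was not particular to the second-run lines, at 37.7 CPM in combination 31 and 67.5 CPM in CX5461 20. It was at 35.2 and 36.5 CPM in combination 8 and 9 and at 14.2 and 17.4 CPM in CX5461 14 and 39. In everolimus 26 it was at 77.2 CPM. Igkv1-117, which led in every vehicle-treated line at 145 to 156 CPM and in everolimus 4 at 69.7 CPM, was at 0 to 0.27 CPM in the 6 lines. Rag1, a subunit of the recombinase that rearranges these segments, was at 54.0 to 66.1 CPM in the combination lines and 64.2 to 105 CPM in the CX5461 lines, which overlap, and at 5.78 to 8.15 CPM in the vehicle-treated lines. Whether kappa segments were still being rearranged in these lines was not tested.

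The 2 kappa segments that set the first-run lines of each treatment apart are close relatives, and the last 90 bases of each are shown so that they can be compared. Igkv4-79 lies at chr6:69042972-69043505 and Igkv4-53 at chr6:69648824-69649363, both on the minus strand of GRCm38 (GENCODE M21). The stretches shown are at chr6:69042972-69043061 and chr6:69648824-69648913, from the 5′ to the 3′ end of the sense strand, and capitals mark the 7 positions that differ.
Igkv4-79: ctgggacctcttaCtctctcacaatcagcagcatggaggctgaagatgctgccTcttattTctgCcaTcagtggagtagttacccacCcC
Igkv4-53: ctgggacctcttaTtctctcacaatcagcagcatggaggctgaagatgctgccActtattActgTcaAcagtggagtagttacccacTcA
Over 292 compared bases the segments were 91.4% identical, and none of the 309 stretches of 50 bases in Igkv4-79 occurred in Igkv4-53, so reads of the length used here differ between them. Igkv4-79 was at 49.2 and 41.3 CPM in combination 8 and 9 and at 0.30 and 0.25 CPM in CX5461 14 and 39, while Igkv4-53 was at 0.94 and 0.38 CPM in the former and at 39.2 and 29.3 CPM in the latter. Igkv4-79 was not particular to combination 8 and 9, since everolimus 26 had it at 27.6 CPM.

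**Figure D1:**
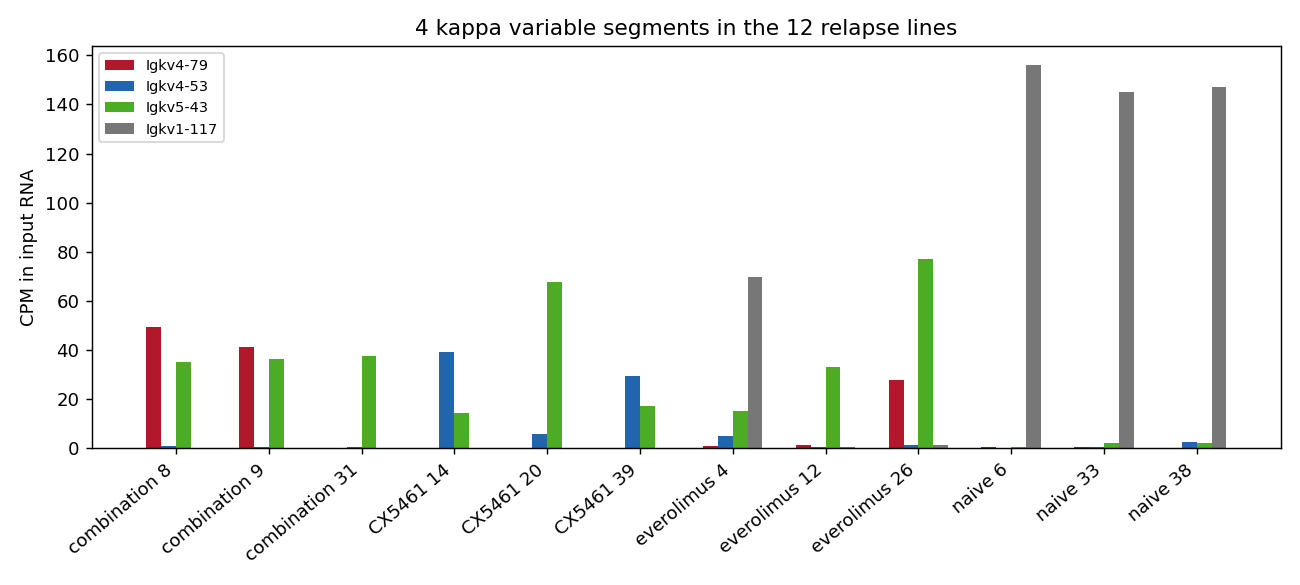
CPM (vertical axis) of 4 kappa chain variable segments in the input RNA of the 12 relapse lines (horizontal axis), 1 bar per segment and line. Igkv4-79 is high in combination 8 and 9, Igkv4-53 in CX5461 14 and 39, and Igkv5-43 alone of the 4 in combination 31 and CX5461 20. Igkv1-117 fills the vehicle-treated (naive) lines. In the everolimus lines, Igkv4-79 is also at 27.6 CPM in everolimus 26 and Igkv1-117 at 69.7 CPM in everolimus 4.

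The first-run lines of each treatment, which shared a leading kappa segment, were the most alike over all genes. The correlation of log2 CPM was 0.985 between CX5461 14 and 39 and 0.982 between combination 8 and 9. It was 0.973 between combination 31 and CX5461 20, whose shared leading segment was also present in the other lines. For the other pairs of these 6 lines it was 0.942 to 0.975. On the first principal component of the 6 libraries, with 47% of the variance, CX5461 20 lay at 45.8 and CX5461 39 and 14 at -29.7 and -23, with the combination lines between them at -10.1 to 13.3. The CX5461 lines thus lay at both ends and the combination lines in the middle. In the first run the leading segment divides the lines as treatment does, so what goes with the segment and what goes with treatment cannot be told apart there. In polysomal RNA each of the 6 lines had the same leading segment as in input RNA, though in combination 9 Igkv4-79 (32.4%) and Igkv5-43 (31.9%) were nearly equal.

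Out of 14474 genes tested, Snn and Adm rose in the combination lines and St14 fell, at an adjusted p below 0.05 (edgeR's quasi-likelihood test with Benjamini-Hochberg adjustment). That is 0.0138% of genes higher, 0.00691% lower and 0.0207% in either direction. At an unadjusted p below 0.05, 4.63% of genes were higher and 4.09% lower, and the lines did not overlap at 7.61% of genes, with combination higher, and at 7.5%, with combination lower. DESeq2 called 49 genes on the same counts, with Snn, Adm and St14 among them.

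Snn (ENSMUSG00000037972.7, chr16:11060945-11074985, plus strand) encodes stannin, a small membrane protein of mitochondria and the endoplasmic reticulum. It stood at 61.9, 72.5 and 64.7 CPM in combination 8, 9 and 31 and at 19.7, 32.1 and 21.6 CPM in CX5461 14, 20 and 39. All combination lines lay above all CX5461 lines, and the everolimus lines (52.9 to 54.7 CPM) and vehicle-treated lines (42.1 to 44.7 CPM) lay between them. The log2 fold change was 1.44 ± 0.16 (SE, n = 3 and 3 lines), with an adjusted p of 0.0105 from edgeR. In polysomal RNA Snn rose as well, by 1.57 ± 0.17 on the log2 scale (adjusted p = 0.0240, edgeR), and was the 1 gene past the threshold of 14797 tested (0.00676%). Without the polysomal libraries of CX5461 14 and 39, which leaves CX5461 20 as the 1 CX5461 line, the value was 1.22 ± 0.18.

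Adm (ENSMUSG00000030790.15, chr7:110627661-110629820, plus strand) encodes adrenomedullin, a secreted vasodilator peptide and a known target of hypoxia-inducible factors. Its input level was 4.27, 7.06 and 5.01 CPM in combination 8, 9 and 31 and 0.60, 0.52 and 1.04 CPM in CX5461 14, 20 and 39. The combination lines stood above every other relapse line, since the everolimus lines lay at 0.56 to 0.71 CPM and the vehicle-treated lines at 1.15 to 1.62 CPM. The log2 fold change was 2.90 ± 0.33 (SE, n = 3 and 3 lines; adjusted p = 0.0105, edgeR). In polysomal RNA the log2 fold change was 2.17 ± 0.45 (adjusted p = 0.108, edgeR), and 2.91 ± 0.65 without CX5461 14 and 39. The antisense gene Gm28863 overlaps Adm, and the labels do not say whether counting used strand.

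St14 (ENSMUSG00000031995.9, chr9:31089402-31131853, minus strand) encodes matriptase, a serine protease of the cell surface. It was at 21.4, 20.3 and 17.3 CPM in combination 8, 9 and 31 and at 42.0, 36.9 and 42.7 CPM in CX5461 14, 20 and 39. The CX5461 lines were the high ones among all relapse lines: everolimus lines reached 31.5 CPM and vehicle-treated lines 24.2 CPM. It fell by 1.04 on the log2 scale (SE 0.12, n = 3 and 3 lines; adjusted p = 0.0105, edgeR), and in polysomal RNA the log2 fold change was -0.78 ± 0.12 (adjusted p = 0.108, edgeR). The 3 changes had the same sign in both column runs, at 1.69 and 1.01 for Snn, 2.65 and 3.04 for Adm and -1.02 and -1.09 for St14. The lines did not overlap at these genes, which the naming rule required, so the shared sign was fixed in advance. It is no replication across runs. All 3 lost the threshold in the fits without combination 9 (adjusted p of 0.0982 to 0.0993, edgeR), without CX5461 14 (0.119) or on the 6 libraries alone (0.265). Without CX5461 39, Snn and St14 lost it (0.102) and Adm kept it (0.0289), and without combination 31 St14 lost it (0.0697).

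**Figure D2:**
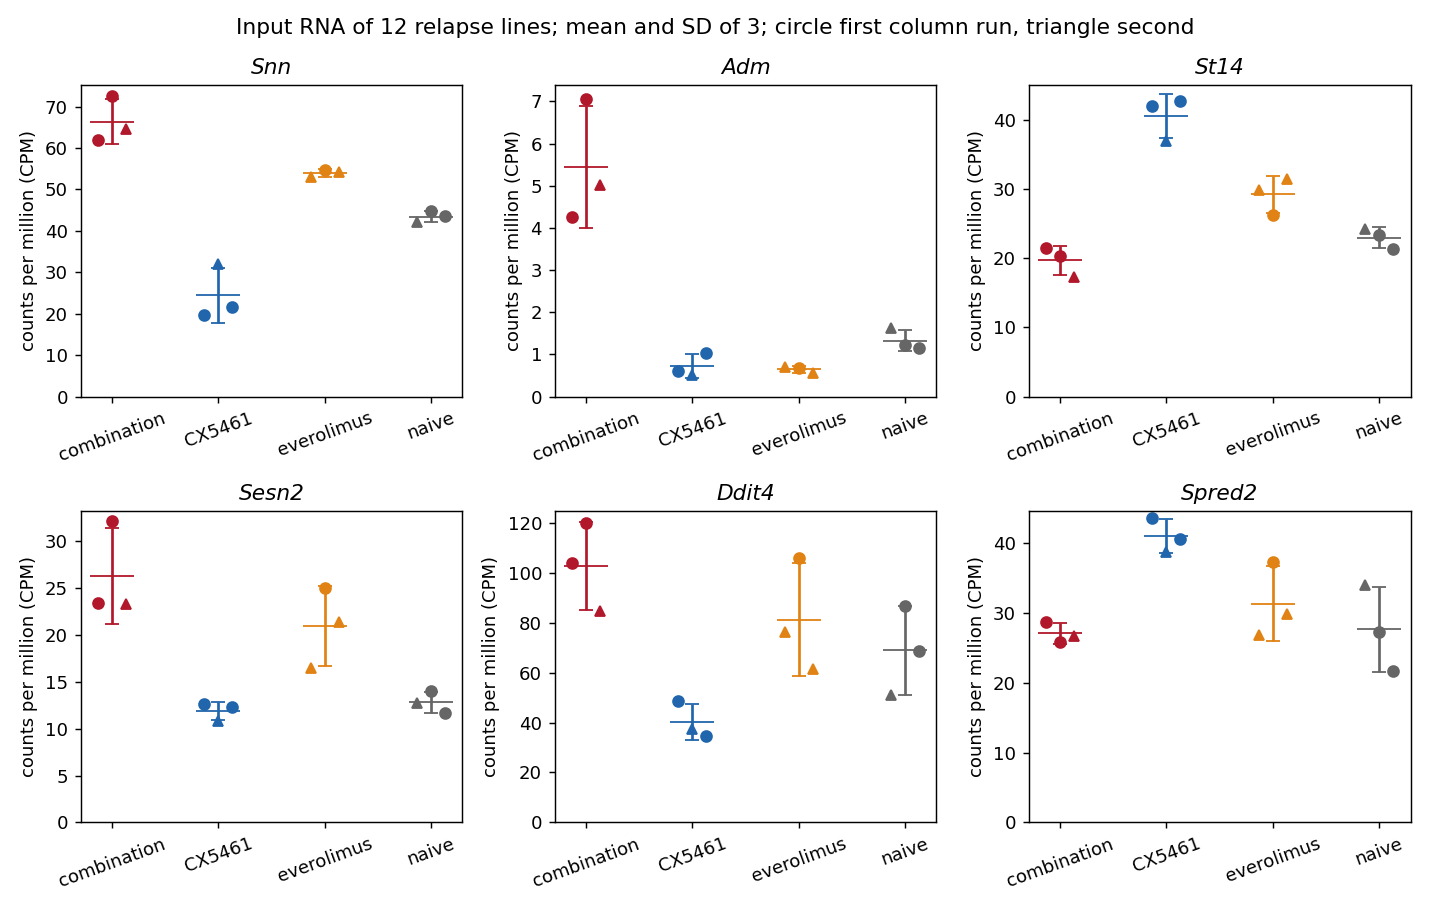
CPM (vertical axis) in input RNA by treatment (horizontal axis); points are lines (circles, first column run; triangles, second), and the bar and whiskers are the mean and SD of 3 lines. Adm is above 4 CPM only in combination lines, St14 and Spred2 are highest in the CX5461 lines, and Snn, Sesn2 and Ddit4 are lowest there, with Sesn2 of the vehicle-treated lines next to them.

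The 250 bases before the RefSeq transcript start of the 2 genes that rose are shown because Adm is a known hypoxia target and Snn shared its direction. They come from RefSeq on GRCm38.p6, at chr16:11066048-11066297 for Snn and chr7:110627407-110627656 for Adm, both plus strand, and lie outside the annotated exons of these genes. The Snn window lies inside the span of the gene, in an intron of a GENCODE transcript that starts further upstream. Both strands were searched for ACGTG, the core of the hypoxia response element, for CACGTG, the E-box bound by Myc and Max, which contains ACGTG, and for TGATGNAA, the composite element bound by ATF4 and C/EBP factors. Capitals mark the matches.
Snn: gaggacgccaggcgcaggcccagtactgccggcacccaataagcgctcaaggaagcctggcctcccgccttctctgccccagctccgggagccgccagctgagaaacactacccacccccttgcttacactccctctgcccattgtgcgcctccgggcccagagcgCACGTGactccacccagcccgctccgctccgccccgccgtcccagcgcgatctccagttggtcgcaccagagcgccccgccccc
Adm: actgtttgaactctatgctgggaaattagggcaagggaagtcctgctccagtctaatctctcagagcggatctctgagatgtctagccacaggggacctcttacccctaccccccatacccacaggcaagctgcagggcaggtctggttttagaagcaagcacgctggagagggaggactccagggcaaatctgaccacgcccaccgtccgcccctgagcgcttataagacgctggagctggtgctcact
The Snn window holds 1 CACGTG, and the Adm window holds none of the 3 motifs. Among 32851 RefSeq windows of the same length, 16.6% held ACGTG, 6.02% CACGTG and 3.45% TGATGNAA.

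Hypoxia-inducible factor targets were gathered into a list after the value of Adm was seen, so it is a description. Of 26 targets tested, Adm passed the threshold. At an unadjusted p below 0.05, 8 were higher, Adm among them, and 2 lower, beside 4.63% and 4.09% of all genes. Bhlhe40, a transcriptional repressor, was at 5.78, 14.6 and 1.81 CPM in combination 8, 9 and 31 and at 0.26, 0.40 and 1.04 CPM in CX5461 14, 20 and 39 (log2 fold change 3.68 ± 0.76, adjusted p = 0.285, edgeR). Combination 9 was the highest line, and combination 31 came close to CX5461 39. Egln3, an oxygen-sensing prolyl hydroxylase, was at 32.2, 62.0 and 23.8 CPM against 19.8, 11.3 and 23.1 CPM (1.12 ± 0.36 on the log2 scale, adjusted p = 0.478, edgeR). Slc2a1, a glucose transporter gene, was at 195, 241 and 178 CPM against 158, 153 and 135 CPM. The glycolytic enzyme gene Pgk1 had the opposite order, at 195 to 255 CPM in combination lines and 282 to 292 CPM in CX5461 lines, so the members did not share 1 direction. The mean log2 CPM over the list was 4.88 to 5.35 in the combination lines, 4.63 to 4.74 in the CX5461 lines and 4.47 to 4.61 in the other relapse lines. These means include Adm, which prompted the list, and Bhlhe40, so they are no separate evidence of a change across the list. The median log2 fold change was 0.16 beside 0.00 for all genes.

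Stress-induced inhibitors of mTORC1 were among the genes of lowest p, and Sesn2 came next after the 3 genes past the threshold. Sesn2 (chr4:132492032-132510501) was at 23.4, 32.2 and 23.3 CPM in combination 8, 9 and 31 and at 12.6, 10.8 and 12.3 CPM in CX5461 14, 20 and 39. The lines did not overlap, and the log2 fold change was 1.14 ± 0.18 with an adjusted p of 0.110 (edgeR). Ddit4 (chr10:59949669-59951834) was at 104, 120 and 84.8 CPM against 48.6, 37.5 and 34.7 CPM, also without overlap, with a log2 fold change of 1.36 ± 0.24 and an adjusted p of 0.178 (edgeR). With the column run as a term in the model both passed the threshold (adjusted p = 0.0197 for Sesn2 and 0.00818 for Ddit4, edgeR). Vehicle-treated lines were at 11.7 to 14 CPM for Sesn2, like the CX5461 lines, but at 51.2 to 86.7 CPM for Ddit4, above all CX5461 lines.

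Both genes are also targets of ATF4, the transcription factor of the integrated stress response. Of 32 genes of the ATF4 list, 0 passed the threshold with edgeR, and 4 were higher and 1 lower at an unadjusted p below 0.05 (4.63% and 4.09% of all genes). Trib3, a pseudokinase that feeds back on ATF4, was at 6.82, 12.5 and 8.84 CPM in the combination lines and at 4.90, 1.68 and 1.66 CPM in CX5461 14, 20 and 39. Chac1, which degrades glutathione, was at 15.3, 21.8 and 27.9 CPM against 13.6, 4.51 and 7.18 CPM. In both genes CX5461 14 was the highest CX5461 line and lay just below the lowest combination line. The list's mean log2 CPM overlapped between the treatments, at 4.77 to 5.17 against 4.41 to 4.99, and its median log2 fold change was 0.13.

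Polysomal RNA did not show the same order for these stress genes. Polysomal Ddit4 was at 115, 184 and 165 CPM in combination 8, 9 and 31 and at 220, 59.7 and 208 CPM in CX5461 14, 20 and 39. CX5461 20 alone lay below the combination lines, and the polysomal log2 fold change was -0.07 ± 0.38 for Ddit4 and 0.21 ± 0.33 for Sesn2. Without the polysomal libraries of CX5461 14 and 39, which leaves CX5461 20 as the 1 CX5461 line and assumes that it varies like the other groups, the polysomal log2 fold change was 1.37 ± 0.26 for Ddit4 (adjusted p = 0.276, edgeR) and 1.24 ± 0.32 for Sesn2 (adjusted p = 0.290, edgeR).

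The list of ERK feedback genes holds the Dusp, Spry and Spred inhibitors, other RAS inhibitors, ERK targets such as Etv4 and Egr1, and the RAS activators Rasgrp1 and Rasgrp3. Of 18 tested, 0 passed the threshold with edgeR. At an unadjusted p below 0.05, 7 were lower and 0 higher (4.09% and 4.63% of all genes), the lines did not overlap with combination lower at 8 (7.5% of all genes), and the median log2 fold change was -0.35. Spred2, an inhibitor of RAF activation, was at 28.7, 25.8 and 26.8 CPM in combination 8, 9 and 31 and at 43.6, 38.8 and 40.7 CPM in CX5461 14, 20 and 39, with little spread inside each treatment (log2 fold change -0.60 ± 0.17, adjusted p = 0.448, edgeR). Spry4, a Sprouty inhibitor of receptor signalling, was at 9.94, 11.8 and 5.86 CPM against 15.7, 26.1 and 16.3 CPM (-1.07 ± 0.31, adjusted p = 0.454, edgeR). Both drug groups were far above the vehicle-treated lines, where Spry4 was at 0.64 to 0.88 CPM, and above the everolimus lines at 1.64 to 3.18 CPM. Dusp6, the cytoplasmic ERK phosphatase, was at 101, 104 and 68.3 CPM against 137, 192 and 120 CPM. For Spry4 and Dusp6, combination 31 was the lowest of the 6 lines and CX5461 20 the highest, so the second column run held the larger difference.

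In polysomal RNA the same list had a median log2 fold change of -0.52, with 8 of 17 tested lower and 0 higher at an unadjusted p below 0.05, beside 10.8% and 8.56% of all genes. Without the polysomal libraries of CX5461 14 and 39, which leaves CX5461 20 as the 1 CX5461 line, the median was -0.69 over 18 tested. In input RNA, CX5461 20 had the highest mean log2 CPM of this list among the combination and CX5461 lines, at 3.94. Polysomal Spred1 was at 56.3, 48.8 and 37.7 CPM in combination 8, 9 and 31 and at 75.6, 92.3 and 85.8 CPM in CX5461 14, 20 and 39. Polysomal Spry4 kept its order too, at 5.64 to 9.82 CPM against 12.6 to 22.3 CPM. In input RNA 4 of the 18 members had a log2 fold change above 0 and none of them passed the threshold: Rasgrp1, an activator of RAS, at 0.82, Spry1 at 0.67, Ier3 at 0.53 and Etv5 at 0.06. Early response genes of the AP-1 and NR4A families had a median log2 fold change of 0.10 in input RNA, with 0 of 21 past the threshold. At an unadjusted p below 0.05, 0 were higher and 2 lower, beside 4.63% and 4.09% of all genes in input RNA.

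**Figure D3:**
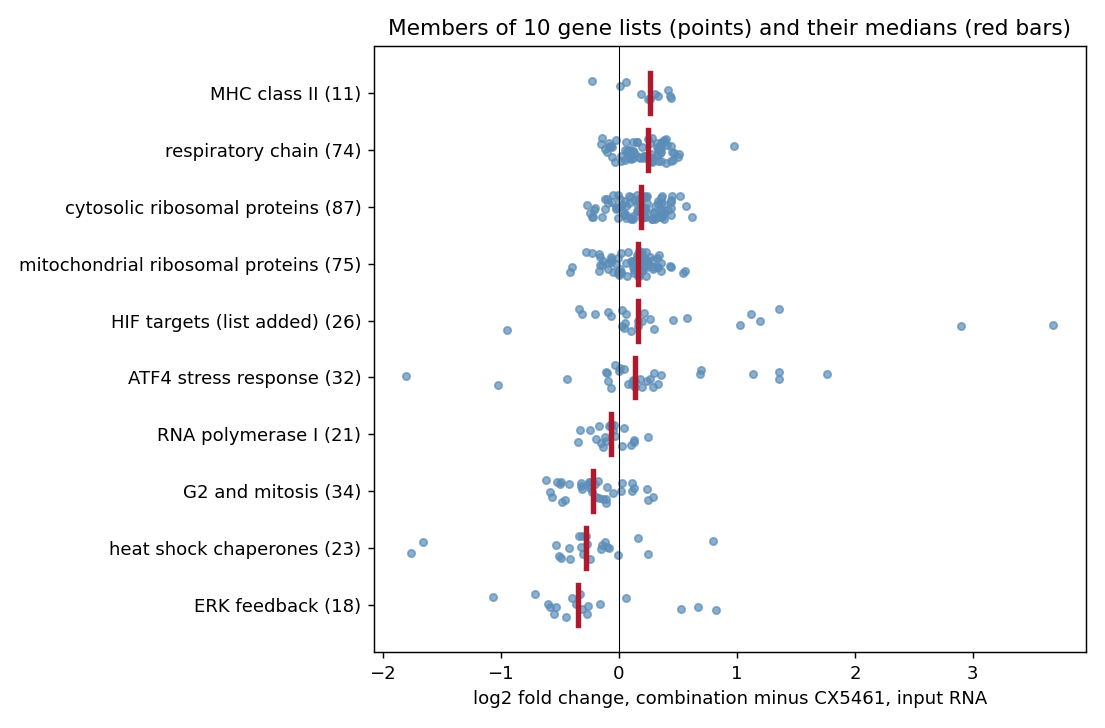
Log2 fold change of combination over CX5461 lines in input RNA (horizontal axis) for the tested members of 10 gene lists (points; number in brackets) with the median of each list (red bar). Medians run from -0.35 for ERK feedback genes to 0.26 for MHC class II genes, and the points far to the right among the HIF targets are Adm and Bhlhe40.

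Nuclear genes of the respiratory chain and genes of ribosomes had medians slightly above 0. The 13 mitochondrially encoded transcripts went the other way, with a median log2 fold change of -0.19 and 11 below 0, and 0 had an unadjusted p below 0.05. Of 74 nuclear-encoded respiratory chain subunits, 0 passed the threshold with edgeR, 7 were higher and 0 lower at an unadjusted p below 0.05 (4.63% and 4.09% of all genes), and 17 (7.61% of all genes) did not overlap with combination higher, against 0 (7.5%) with combination lower. Ndufc1, a complex I subunit, was at 12.5, 14.8 and 15.4 CPM in combination 8, 9 and 31 and at 6.69, 9.42 and 5.73 CPM in CX5461 14, 20 and 39 (log2 fold change 0.98 ± 0.20, adjusted p = 0.285, edgeR). The medians were 0.25 for the respiratory chain, 0.19 for 87 cytosolic ribosomal proteins and 0.16 for 75 mitochondrial ribosomal proteins, with 0 of each past the threshold with edgeR. At an unadjusted p below 0.05, 7 cytosolic ribosomal proteins were higher and 0 lower, and 6 mitochondrial ribosomal proteins were higher and 2 lower. The lines did not overlap at 18 cytosolic ribosomal proteins with combination higher and at 4 with combination lower. Their median difference was 0.25 in the first run and 0.03 in the second, and combination 31 and CX5461 14 had the same mean log2 CPM of 8.01, whereas the respiratory chain had medians of 0.26 and 0.18. Exon length moved with the fold over all genes: the median log2 fold change was 0.08 in the fifth of genes with the shortest exons and -0.10 in the fifth with the longest, and the median exon length was 1737 bases for the respiratory chain and 1736 bases for cytosolic ribosomal proteins. Its part in these medians was not tested. In polysomal RNA the medians were -0.10 for the respiratory chain and -0.24 for cytosolic ribosomal proteins, and 0.09 and -0.11 without CX5461 14 and 39.

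Genes of RNA polymerase I, which CX-5461 acts on, differed little. Of 21 genes of the RNA polymerase I machinery, 0 passed the threshold with edgeR and 0 did at an unadjusted p below 0.05 in either direction, with a median log2 fold change of -0.07. The lines did not overlap at 4 with combination lower and at 0 with combination higher (7.5% and 7.61% of all genes). Polr1b, the second largest subunit, was at 146, 145 and 137 CPM in the combination lines and 164, 177 and 165 CPM in the CX5461 lines, without overlap (log2 fold change -0.24 ± 0.11, adjusted p = 0.567, edgeR). Rrn3, the initiation factor that mTOR signalling regulates, was at 54.0, 60.5 and 74.3 CPM against 67.5, 74.1 and 73.5 CPM and overlapped. Top2a, topoisomerase II alpha, was at 76.8, 135 and 212 CPM in combination 8, 9 and 31 and at 188, 215 and 225 CPM in CX5461 14, 20 and 39, with combination 8 the lowest (log2 fold change -0.57). The 6 topoisomerase genes had a median of -0.23, with 0 past the threshold with edgeR. At an unadjusted p below 0.05, 1 was lower and 0 higher (4.09% and 4.63% of all genes). Myc was at 1340 to 1720 CPM against 1470 to 1780 CPM (log2 fold change -0.13 ± 0.16), and Fkbp1a, which encodes the protein that everolimus binds, at 136 to 181 CPM against 140 to 155 CPM. Eif4ebp1, the translation repressor that mTORC1 phosphorylates, was at 58.7 to 77.0 CPM against 44.3 to 74.6 CPM, and these 3 genes overlapped.

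Of 28 genes of the p53 pathway tested, 0 passed the threshold with edgeR, and 2 were higher and 4 lower at an unadjusted p below 0.05 (4.63% and 4.09% of all genes). The lines did not overlap at 2 with combination higher and at 4 with combination lower (7.61% and 7.5% of all genes), and the median log2 fold change was 0.02. Mdm2, the ubiquitin ligase that p53 induces and that degrades it, was at 14.1, 12.5 and 17.0 CPM in the combination lines and 24.9, 17.8 and 20.9 CPM in CX5461 14, 20 and 39 (log2 fold change -0.55 ± 0.16, adjusted p = 0.454, edgeR). Trp53 itself was at 154 to 235 CPM against 204 to 233 CPM, and Cdkn2a was at 1.15 to 1.22 CPM against 0.68 to 1.37 CPM. Of the cAMP and EPAC genes, 0 of 30 passed the threshold with edgeR, with 2 higher and 2 lower at an unadjusted p below 0.05. Rapgef3, which encodes EPAC1, was at 17.8, 27.8 and 15.8 CPM against 19.1, 5.95 and 18.3 CPM, with CX5461 20 alone low, and Rapgef4, which encodes EPAC2, was below the count filter at 0.30 to 0.53 CPM.

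Heat shock chaperones had a median log2 fold change of -0.28 over 23 genes, of which 0 passed the threshold with edgeR and 7 were lower and 0 higher at an unadjusted p below 0.05 (4.09% and 4.63% of all genes). The median difference was -0.39 in the first column run and -0.02 in the second, and the mean log2 CPM over the list was 5.77 in CX5461 20, within the combination lines (5.75 to 5.79), against 6.11 and 6.20 in CX5461 14 and 39. Hspa8, the constitutive chaperone of the cytosol, was at 1170, 1220 and 1320 CPM in combination 8, 9 and 31 and at 1470, 1550 and 1660 CPM in CX5461 14, 20 and 39, and the lines did not overlap. The inducible Hspa1b behaved otherwise, at 3.85, 2.98 and 2.29 CPM against 16.2, 1.68 and 12.8 CPM, high only in CX5461 14 and 39. Of 34 G2 and mitosis genes, 0 passed the threshold with edgeR and 5 were lower and 0 higher at an unadjusted p below 0.05 (4.09% and 4.63% of all genes), with a median of -0.21. The median difference was -0.36 in the first run and -0.05 in the second, and the mean log2 CPM of combination 31 (5.83) lay within the CX5461 lines (5.80 to 5.85). Kif20a, a kinesin of cytokinesis, was at 29.1, 32.8 and 33.1 CPM against 49.7, 37.1 and 49.6 CPM.

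The agreement between the 2 column runs was poor for genes at large. The difference between combination 8 and 9 and CX5461 14 and 39 had the same sign as that between combination 31 and CX5461 20 at 50.1% of the 14474 genes, and the 2 differences correlated at -0.19 across genes, which are not independent replicates. In the first run alone 712 of 16557 genes passed the threshold, with 362 higher (2.19%) and 350 lower (2.11%, edgeR). Of the 710 that were also tested over all lines, 315 (44.4%) had the same sign in the second run.

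MHC class II genes, which present peptides to CD4+ T cells, were the clearest case. Cd74, the invariant chain, was at 703 and 420 CPM in combination 8 and 9, 138 and 79.8 CPM in CX5461 14 and 39, 454 CPM in combination 31 and 1100 CPM in CX5461 20. H2-Eb1, a class II beta chain, was at 79.2 and 54.6 CPM, 13.3 and 6.97 CPM, 44.6 CPM and 122 CPM in the same order. The combination lines lay in the middle, while the CX5461 lines held both the lowest and the highest values. In the first run alone 10 of 11 class II genes rose in the combination lines (2.19% of all genes; median log2 fold change 2.35, edgeR), whereas the median difference in the second run was -1.31, and 0 of 11 had the same sign in both. Over all lines 0 of 11 passed the threshold with edgeR, 0 at an unadjusted p below 0.05, and the median was 0.26. The mean log2 CPM over the list was 3.66 to 3.97 in the vehicle-treated lines and 4.73 to 5.52 in the everolimus lines.

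**Figure D4:**
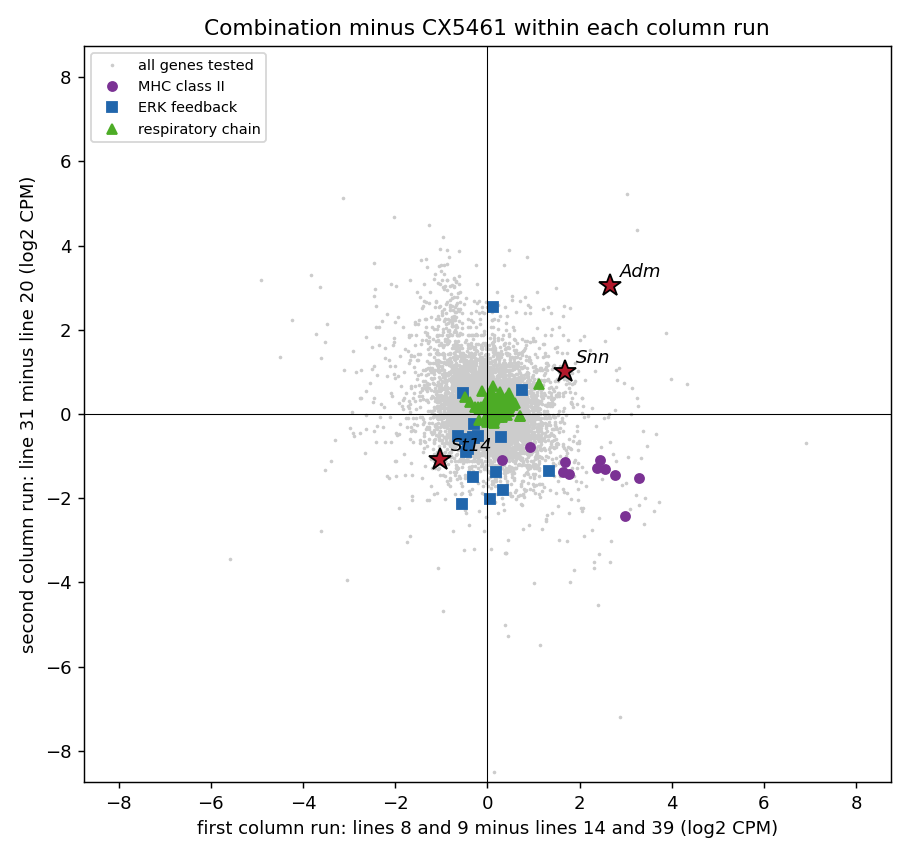
Difference in log2 CPM between combination and CX5461 lines in the first column run (horizontal axis) and in the second (vertical axis); each point is a gene, and stars mark Snn, Adm and St14. MHC class II genes all lie at the lower right, with opposite signs in the 2 runs, and Adm and Snn lie at the upper right.

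The remaining genes with the lowest p in each direction did not pass the threshold. Stoml1, a stomatin-like membrane protein gene, was at 9.57, 8.46 and 8.73 CPM in combination 8, 9 and 31 and at 4.82, 4.16 and 3.20 CPM in CX5461 14, 20 and 39 (log2 fold change 1.14 ± 0.18, adjusted p = 0.115, edgeR). Lmo4, which encodes a LIM-domain transcriptional adaptor, was at 374, 378 and 344 CPM against 213, 233 and 185 CPM, and the other relapse lines were at 105 to 187 CPM. On the side of lower values, Tulp4 was at 13.5, 12.5 and 27.2 CPM against 37.1, 74.3 and 54.7 CPM (-1.64 ± 0.33, adjusted p = 0.285, edgeR), with the everolimus and vehicle-treated lines at 7.81 to 15.9 CPM. Smtn, which encodes the cytoskeletal protein smoothelin, was at 29.0 to 34.7 CPM against 42.4 to 75.6 CPM. Rhbdf2, an inactive rhomboid protein gene that controls the release of TNF and EGF-family ligands, was at 13.8 to 15.0 CPM against 20.2 to 24.2 CPM, below every everolimus and vehicle-treated line (33.2 to 47.9 CPM). Lrrn4 was at 10.6 to 10.8 CPM against 15.1 to 17.7 CPM, and the kappa segment Igkv4-53 had a log2 fold change of -5.41 ± 1.04 (adjusted p = 0.271, edgeR).

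Other genes near the threshold, chosen after their values were seen, belong to NF-kB signalling and adhesion. Bcl3, a nuclear cofactor of NF-kB, was at 3.17, 1.62 and 1.49 CPM in combination 8, 9 and 31 and at 0.38, 0.52 and 0.58 CPM in CX5461 14, 20 and 39 (log2 fold change 2.07 ± 0.36, adjusted p = 0.178, edgeR). Everolimus and vehicle-treated lines were at 2.38 to 4.52 CPM, so the CX5461 lines were the lowest, and combination 9 and 31 also lay below that range. Of the 27 NF-kB genes, 0 passed the threshold with edgeR and 5 were higher and 0 lower at an unadjusted p below 0.05 (4.63% and 4.09% of all genes). Their median difference was 0.39 in the first column run and -0.29 in the second, and the mean log2 CPM overlapped, at 3.31 to 3.96 against 3.22 to 3.77. Of 25 chemokine receptor, adhesion and homing genes, 0 passed the threshold with edgeR, 4 were higher and 4 lower at an unadjusted p below 0.05, the lines did not overlap at 2 with combination higher and 6 with combination lower (7.61% and 7.5% of all genes), and the median was 0.06. Among the latter were the integrin genes Itgb1, Itgal and Itga4, with Itgb1 at 26.5, 29.2 and 29.7 CPM against 44.0, 35.5 and 42.1 CPM. Hk1, hexokinase 1, was at 21.8, 14.1 and 13.5 CPM against 7.93, 9.31 and 6.06 CPM (1.09 ± 0.22, adjusted p = 0.285, edgeR). Its polysomal log2 fold change was 1.33 ± 0.22 (adjusted p = 0.108, edgeR). Against CX5461 20 alone, without CX5461 14 and 39, it was 0.98 ± 0.27.

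Over the 52 lists chosen for this tissue and these drugs, 0 members passed the threshold with edgeR in input RNA, and most medians were near 0. The counts below are at an unadjusted p below 0.05, where 4.63% of all genes were higher and 4.09% lower. Some lists lay above these shares in 1 direction, and others lay near or below them. Ribosome biogenesis factors had a median log2 fold change of -0.09 over 74 genes, with 2 higher and 9 lower at an unadjusted p below 0.05, translation factors -0.08 over 51 genes with 1 higher and 1 lower, and cytosolic tRNA synthetases -0.11 over 23 genes with 1 higher and 1 lower. Folding genes of the endoplasmic reticulum had a median of -0.17 over 24 genes, with 3 lower, and Hspa5, the main chaperone there, was at 87.0, 76.2 and 73.9 CPM in combination 8, 9 and 31 and at 112, 126 and 108 CPM in CX5461 14, 20 and 39. Class I antigen presentation had a median of 0.34 over 16 genes with 4 higher, of which H2-K1, a class I heavy chain, was at 148, 158 and 82.1 CPM against 66.3, 105 and 47.6 CPM, so that CX5461 20 lay above combination 31. The 37 genes of B cell identity and receptor signalling had a median of 0.11, with 2 higher and 0 lower.

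Other genes of survival and drug response in the panel listed whatever its result overlapped between treatments, with the exception of Pim1. Mdm2 and Polr1b, panel genes given above, did not overlap either. Pim1, a serine and threonine kinase that cooperates with Myc in lymphoma, was at 34.7, 32.6 and 29.2 CPM in combination 8, 9 and 31 and at 39.2, 40.6 and 35.8 CPM in CX5461 14, 20 and 39 (log2 fold change -0.26 ± 0.11, adjusted p = 0.543, edgeR). Bcl2 and Mcl1, which block apoptosis, had log2 fold changes of 0.21 ± 0.24 and -0.07 ± 0.17. Abcb1b, a drug efflux pump gene, was at 7.91, 12.9 and 6.12 CPM against 7.12, 9.60 and 7.51 CPM, and the log2 fold change was 0.16 ± 0.37. Cdkn1a, the cell cycle inhibitor induced by p53, was at 6.56, 1.66 and 6.87 CPM against 10.2, 6.07 and 8.59 CPM, with combination 9 alone far below the rest. Ighm, the heavy chain constant region of IgM, was at 1370 to 1980 CPM against 1010 to 1960 CPM.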

How the data were processed

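Raw counts per gene symbol were deposited by the authors for 12 relapse lines in input and in polysomal RNA, 35556 gene names each. Per the submitters' processing notes, TopHat2, HTSeq and GRCm38 were used; versions, annotation and strand are not given in the sources used here. Libraries were ribodepleted, per the labels' protocols. Each fraction was fitted with edgeR 4.0.16 (R 4.3.3; TMM, filterByExpr, quasi-likelihood test) over all 12 lines and 4 treatments, contrasting combination with CX5461, with Benjamini-Hochberg adjustment over 14474 (input) or 14797 (polysomal) genes and a threshold of 0.05. Each standard error was taken as the size of the log2 fold change divided by the root of its F statistic. Levels are TMM-scaled CPM or log2 CPM with a prior count of 2, and differences between column runs are of log2 CPM. Column runs are stretches of neighbouring columns on 1 side of 5 CPM of Gm9341. In the polysomal table combination 9 and 31 and CX5461 20 are in the first run, combination 8 in the second, and CX5461 14 and 39 form the third by themselves. 27 names turned into dates were tested but not named. The script was tested on simulated data.

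The lines, the 52 gene lists and the tests were chosen with earlier results of these data known, and a list of hypoxia targets was added after values were seen. Genes were named by rule: among genes past the threshold with mean log2 CPM of at least 1 and lines not overlapping, the 12 largest per direction, filled to 6 by the lowest p, plus a fixed panel; other list members were chosen after their values were seen. Gene positions are from GENCODE M21 (GRCm38). Promoter sequences are from RefSeq. Alternatives were DESeq2 1.42.0, RLE scaling, no count filter, the 6 libraries alone, column runs and leaving out each line. The acute libraries were not used here. 1 gene of the fixed panel and marker list is not reported here.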

Additional observations from a re-analysis of the deposited data

How the results depend on the processing

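The number of genes past the threshold in input RNA (3) was 49 with DESeq2, 197 with no count filter, 5 with the column run as a term, 712 in the first column run alone and 0 on the 6 libraries alone (edgeR, with 1301 at an unadjusted p below 0.05). Leaving out 1 line gave 0 to 51 genes: 0 without combination 9 (781 at an unadjusted p below 0.05), 0 without CX5461 14 (938), 1 without CX5461 39 and 51 without CX5461 20. Leaving out combination 9 and CX5461 39 together, chosen after seeing the data, gave 0 (351). In polysomal RNA the count (1) was 984 with DESeq2, 20 with no filter, 29 with the column run as a term, 51 in its own first column run (combination 9 and 31 against CX5461 20 alone, assumed to vary like the other groups) and 0 on the 6 libraries alone (1399 at an unadjusted p below 0.05). Leaving out 1 line gave 0 to 6752 genes: 0 without combination 9 (2127), CX5461 14 (1575) or CX5461 39 (1393), 4 without combination 31, 24 without combination 8 and 6752 without CX5461 20, which leaves the pair of libraries that stand apart; without that pair it was 2. Fewer samples were fitted in these, and beyond that the cause was not tested. Snn, Adm and St14 were called with DESeq2, with no filter, in the first run and without CX5461 20, and kept their direction under every alternative run in input RNA. Their lines did not overlap, so the direction could hardly change. Eif4ebp1, Trp53, Mcl1, Fkbp1a and Abcb1b, past the threshold in no fit, and the median of the cAMP list changed sign in at least 1 alternative. Low counts limit Adm and Bhlhe40, at about 1 CPM or less in the CX5461 lines. No paired analysis was possible because the lines compared share no replicate number.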
